A study of Apis mellifera with 79 samples.

Results

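The brains of 15 nurses of the honey bee Apis mellifera were compared by colony, 5 single brains each from colonies C21, C28 and C23. All 15 had the same exposure, so that the comparisons are between colonies and not between exposed and unexposed bees. They were taken as every exposed library of the apiary nurse table and make up 15 of the 79 libraries of the series. The series measured gene expression by RNA sequencing in brains of nurses and foragers, in a field study near and far from corn and in an apiary experiment. In the apiary experiment, hives of a single apiary were given pollen patties, and those of C21, C28 and C23 carried clothianidin at 4.9 ppb at first and at 2.0 ppb in the later weeks. Bees were collected on day 30 from colonies that had a queen. Set beside the nurses here are 15 exposed foragers of C21, C28 and C23, which are other bees of the same hives, and 15 unexposed nurses of C25, C26 and C27, which were given patties without clothianidin. The amount of clothianidin that each nurse took up is not given in the sources used here.

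Worker bees of a hive are daughters of one queen that has mated with many drones, so that nest mates share a mother and often not a father. Nurses are the younger workers that feed the brood inside the hive, and foragers are the older workers that collect nectar and pollen, with a known shift in brain gene expression between these tasks. Clothianidin is a neonicotinoid, a class of insecticides that bind nicotinic acetylcholine receptors, the main excitatory receptors of the insect brain. Bees of a colony share their queen, their hive and most of their sequencing run, and each colony is a single hive, so p-values here measure the spread among 5 nest mates and do not separate these sources. In a whole brain, fewer cells of a type and less RNA per cell cannot be told apart.

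Exposed nurses had 10.5 to 34.2 M reads in genes (median 26.4 M), and C23-N1 was the shallowest. The exposed foragers had 19.7 to 36.3 M and the unexposed nurses 23.4 to 45.1 M. The library names carry a run and a lane, and both runs are called A and B here, by the order of their numbers. Of the C21 nurses, N7, N8 and N9 were in lane 4 of run B, N3 was in lane 3 of that run with all 5 C21 foragers, and N4 was in lane 8 of run A. All 5 C28 nurses were in run A, 4 in lane 7 and 1 in lane 8. All 5 C23 nurses were in run B, 3 in lane 4 and 2 in lane 5. C28 and C23 nurses therefore shared no run, and for this pair colony and run cannot be told apart, whereas 3 C21 and 3 C23 nurses shared a lane. The gene identifiers are those of the honey bee official gene set, and 0 of them were found in the table of RefSeq genes. Names could be given only to 23 genes of the nurse table that the study itself named, so that most genes below carry an identifier alone, and brain cell types could not be checked against their markers.

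The 3 colonies were weakly separated in overall expression. Over the 10603 genes with a mean of at least 1 CPM, the mean correlation of log2 CPM values was 0.967 for the 30 pairs of nest mates and 0.961 for the 75 pairs from different colonies. For 11 of 15 nurses the closest library was a nest mate. C21-N4 was closest to C28-N2 (0.975), and both were in lane 8 of run A. C21-N3, C21-N4 and C21-N9 had lower mean correlations with nest mates (0.940, 0.965 and 0.961) than with other colonies (0.947, 0.967 and 0.964). C21-N3 stood furthest from its nest mates, with correlations of 0.936 to 0.948 with the other C21 nurses. Its closest library was C23-N2, with a correlation of 0.964. C21-N3 was sequenced in the lane of the C21 foragers, and whether its label as a nurse is right was not tested. In C21-N3, 169 genes lay more than 1 log2 unit beyond all 14 other nurses, 95 above and 74 below.

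**Figure D1:**
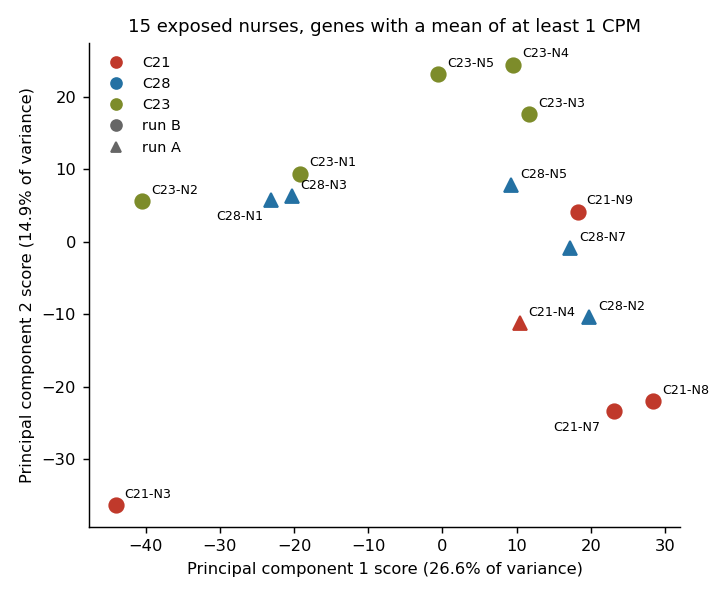
Scores of the 15 exposed nurses on the first 2 principal components of log2 CPM, over genes with a mean of at least 1 CPM. Color marks the colony, circles are run B and triangles run A. C21-N3 lies alone at the lower left, at -44.1 on the first and -36.3 on the second component, and the other C21 nurses lie to the right.

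Differentially expressed genes among the 3 colonies were called with limma where p, adjusted by Benjamini-Hochberg over the 11271 genes of the table, was below 0.05. Across the colonies 121 genes were called by the F test, or 1.07% of the genes tested, and 2742 genes had an unadjusted p below 0.05 (24.3%). By the colony that stood furthest from the other 2, the 121 genes were 49 low and 22 high in C21, 9 low and 13 high in C28, and 20 low and 8 high in C23. Of the pairs, C21 and C23 differed in the most genes, 250 (2.22%), of which 74 were higher (0.657%) and 176 lower (1.56%) in C21. C28 and C23 differed in 15 genes (0.133%), 11 higher (0.0976%) and 4 lower (0.0355%) in C28. C21 and C28 differed in 41 genes (0.364%), 18 higher (0.16%) and 23 lower (0.204%) in C21. At an unadjusted p below 0.05 these pairs differed in 2841 (25.2%), 1329 (11.8%) and 2140 genes (19%). In all, 281 genes were called for 1 pair or more and 0 for all 3 pairs. The medians over all genes were 0.03 for C21 minus C23, 0.01 for C28 minus C23 and -0.0038 for C21 minus C28 on the log2 scale. Under quantile normalization the balance of C21 against C23 moved to 79 higher and 109 lower and that of C21 against C28 to 55 higher and 47 lower, and with libraries set to equal medians that of C28 against C23 moved to 8 higher and 5 lower.

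Most of the differences between C21 and C23 were small. Of the 250 genes called between C21 and C23, 34 differed by at least 1 log2 unit, and the median size was 0.46 for the 74 that were higher in C21 and 0.59 for the 176 that were lower. The 15 genes called between C28 and C23 were larger, with a median of 1.36 for those higher in C28 and 1.82 for those lower. Of the 41 genes called between C21 and C28, 8 differed by at least 1 log2 unit. The values of all 5 bees of one colony lay outside those of the other for 183 of the 250 genes, 15 of the 15 and 40 of the 41, while 5.11%, 3.24% and 4.17% of all genes tested had such a separation for the 3 pairs. Over all genes, the 5 C21 nurses lay above the 5 C23 nurses for 2.22% and below them for 2.89%, C28 above C23 for 1.71% and below for 1.53%, and C21 above C28 for 2.32% and below for 1.85%. All 5 C21 nurses lay above the other 10 nurses for 0.568% of the genes and below them for 0.541%, C28 nurses for 0.16% and 0.231%, and C23 nurses for 0.257% and 0.319%.

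The unexposed nurses, read in the same way, had more differences among their colonies. C25, C26 and C27 differed in 3135 of the 11271 genes by the F test (27.8%), with C25 standing apart, since C25 minus C26 had 3234 called genes (28.7%), C25 minus C27 2392 (21.2%) and C26 minus C27 19 (0.169%). The median residual SD was 0.22 log2 units in exposed nurses and 0.17 in unexposed nurses. The C25 nurses were in lanes 5 and 6, the C26 nurses in lane 7 and 4 C27 nurses in lane 8 of run B, and the other C27 nurse was in lane 8 of run A, so that in unexposed nurses colony and lane cannot be told apart, and the difference between the 2 numbers was not tested. Of the 121 genes called in exposed nurses 61 were also called in unexposed nurses, 50.4% of the exposed calls and 1.95% of the unexposed ones.

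The number of called genes depended on single bees. Without C21-N3 the F test called 543 genes, C21 minus C23 994, C21 minus C28 305 and C28 minus C23 21, and each gene called with all 15 bees was still called. The F test called 258 genes without C21-N4 and 516 without C21-N9, but 12 without C21-N7 and 9 without C21-N8. C21 minus C23 had 244 called genes without C21-N4, 172 of them among the 250 called with all nurses. It had 918 without C21-N9, 7 without C21-N7 and 3 without C21-N8. The same contrast had 87 to 114 called genes when a C28 nurse was left out, since these nurses add to the estimate of the spread. It had 34 without C23-N1, 121 without C23-N2, 23 without C23-N3, 16 without C23-N4 and 4 without C23-N5. For C21 minus C28 the count was 284 without C21-N4, 174 without C21-N9, 3 without C21-N7 and 1 without C21-N8. It was 3 to 13 without a single C28 nurse, 2 without C23-N5 and 12 to 45 without another C23 nurse. C28 minus C23 had 1 called gene without C23-N5, 5 without C28-N2 or C23-N3, 6 without C28-N7, 9 without C21-N8, C23-N1 or C23-N2, and 23 without C28-N3. For the F test, the count was 18 to 51 without a single C28 nurse, 2 without C23-N5 and 32 to 69 without another C23 nurse. The calls of the pair that shared a run were also few once the fit held fewer bees, with 18 genes when only C21 and C23 entered, 5 within run B (4 C21 and 5 C23 nurses) and 1 within lane 4 (3 and 3 nurses).

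**Figure D2:**
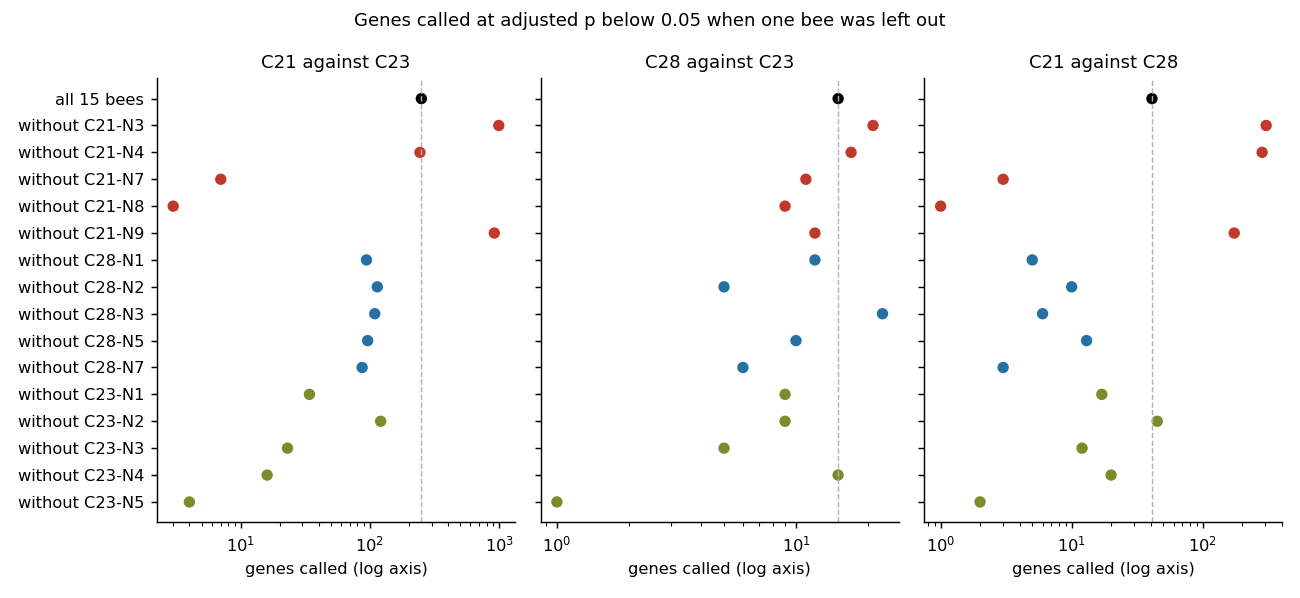
Number of genes called with limma at an adjusted p below 0.05 for each pair of colonies with all 15 nurses (black, dashed line) and without each nurse in turn (colored by its colony), on a log axis. For C21 against C23 the count was 250 with all nurses, 994 without C21-N3 and 3 without C21-N8.

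Only 3 genes were called for the same pair with all nurses and without each of them in turn. These were GB54675, which stood high in C21, and GB48911 and GB48206, which stood low in C23. GB54675 had 4.76, 5.04, 5.31, 5.11 and 5.33 log2 CPM in C21 nurses, 3.43, 3.47, 3.27, 3.28 and 3.89 in C28 nurses and 3.11, 2.95, 3.01, 3.42 and 3.33 in C23 nurses. No C21 nurse overlapped with the other colonies, and the gene did not separate C28 from C23. It was higher in C21 than in C23 by 1.95 ± 0.14 (SE; limma, adjusted p = 1.2e-05) and higher in C21 than in C28 by 1.64 ± 0.14 (adjusted p = 0.00012), the second of which was not called with run as a term (1.58, adjusted p = 0.080). C21-N4, the C21 nurse from the run of the C28 nurses, had 5.04 log2 CPM. Of the unexposed colonies, C25 ranged from 3.75 to 4.36, C26 from 2.92 to 5.37 and C27 from 2.67 to 3.96 log2 CPM, so that the highest C26 nurse lay above every C21 nurse.

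GB48911 had 1.69, 1.82, 1.42, 0.75 and 0.44 log2 CPM in C21 nurses, 1.91, 1.40, 1.51, 1.29 and 1.70 in C28 nurses and -0.82, -0.88, -1.76, -1.37 and -1.91 in C23 nurses. All 10 values of C21 and C28 lay above all 5 of C23. The 35 to 103 reads per C21 nurse and 65 to 98 per C28 nurse stood against 5 to 11 reads per C23 nurse. The difference was 2.57 ± 0.30 for C21 minus C23 (limma, adjusted p = 0.0028) and 2.91 ± 0.30 for C28 minus C23 (adjusted p = 0.0012). With run as a term C28 minus C23 was 2.17 and not called (adjusted p = 1.0), in a fit where only C21-N4 links the runs, and C21 minus C23 within run B was 2.42 (limma, adjusted p = 0.065). In the unexposed colonies the means were 0.91, 1.49 and 1.08 log2 CPM in C25, C26 and C27, and no unexposed nurse was below 0.63.

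GB48206 was read 9, 18, 15, 31 and 44 times in C21 nurses, 7, 21, 13, 22 and 14 times in C28 nurses and 0, 2, 1, 0 and 1 times in C23 nurses. It was thus barely detected in C23 at this depth, and the size of the difference, 3.07 ± 0.41 log2 units for C21 minus C23 (limma, adjusted p = 0.0089) and 2.46 ± 0.41 for C28 minus C23 (adjusted p = 0.035), depends on the count that the authors added before taking logs. On the scale of log2(CPM + 1) the first difference was 0.84, and within run B it was 3.16 (limma, adjusted p = 0.076). The second lost its call without any of 7 single nurses, C28-N2, C28-N5, C28-N7, C23-N1, C23-N3, C23-N4 or C23-N5 (limma, adjusted p = 0.052 to 0.0999), with limma-voom (adjusted p = 0.091) and on the scale of log2(CPM + 1), where it was 0.55 (adjusted p = 0.23). Unexposed nurses ranged from the floor of -3.76 to -0.50 log2 CPM in C26 and to -0.73 in C27, and all 5 C25 nurses were at -0.82 or above.

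**Figure D3:**
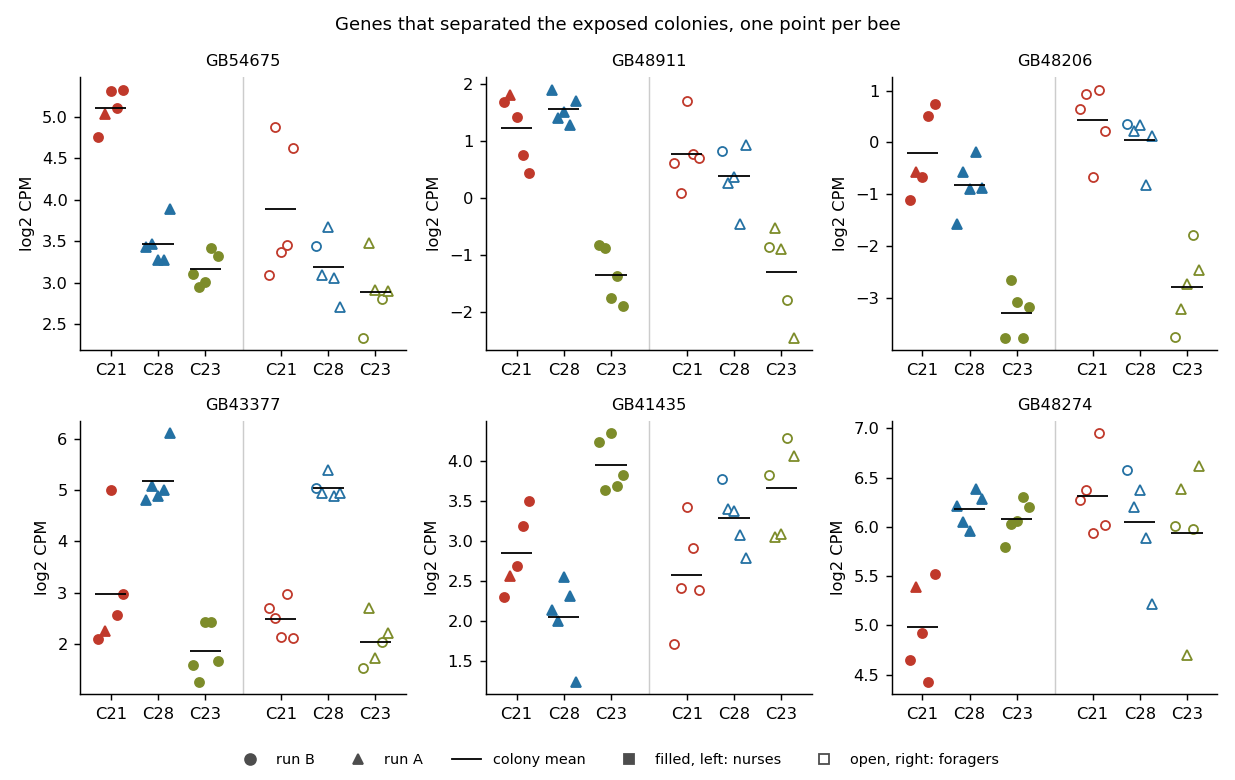
Log2 CPM per bee of 6 genes in colonies C21, C28 and C23, nurses as filled points on the left and foragers as open points on the right of each panel, with colony means as lines; circles are run B and triangles run A. GB48911 and GB48206 were low in C23 in both castes, GB43377 was high in C28 in both, and GB48274 was low in C21 in nurses.

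GB43377 was the gene with the largest rise of C28 over C23. It had 2.10, 2.27, 5.00, 2.57 and 2.98 log2 CPM in C21 nurses, 4.80, 5.07, 4.89, 5.00 and 6.10 in C28 nurses and 1.60, 1.28, 2.43, 2.43 and 1.67 in C23 nurses. The only nurse outside C28 at the C28 level was C21-N7. C28 minus C23 was 3.29 ± 0.47 (limma, adjusted p = 0.018; adjusted p = 0.066 without C23-N5, and 0.88 with run as a term), and C21 minus C28 was -2.19 ± 0.47 (adjusted p = 0.055). C28 foragers had 5.04, 4.95, 5.38, 4.89 and 4.95 log2 CPM, and all C21 and C23 foragers had between 1.55 and 2.98. The first of these C28 foragers was in run B and the other 4 in run A. The 3 C23 foragers of run A had 2.70, 1.74 and 2.22, and those of run B 1.55 and 2.05. All 5 C21 foragers were in run B, and the part of run was not tested. All 15 unexposed nurses had between 1.81 and 2.99 log2 CPM.

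GB41434 and GB41435, identifiers that follow each other in number, were high in C23. GB41435 had 2.30, 2.56, 2.69, 3.19 and 3.50 log2 CPM in C21 nurses, 2.14, 2.00, 2.55, 2.32 and 1.25 in C28 nurses and 4.23, 3.63, 4.34, 3.69 and 3.82 in C23 nurses. C28 was lower than C23 by 1.89 log2 units (SE 0.26; limma, adjusted p = 0.018, 0.066 without C23-N5), and C21 minus C23 was -1.09 ± 0.26 (adjusted p = 0.048, up to 0.13 without C21-N7). GB41434 had the same order, with means of 1.48, 0.61 and 2.76 log2 CPM in C21, C28 and C23, and C28 minus C23 was -2.14 ± 0.34 (limma, adjusted p = 0.029, up to 0.082 without single nurses, here C28-N2). Whether both identifiers belong to one transcript could not be checked, since no genome was used here.

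C21 nurses stood low in GB48274, with 4.65, 5.39, 4.92, 4.43 and 5.52 log2 CPM, against 6.21, 6.05, 5.96, 6.39 and 6.28 in C28 nurses and 5.80, 6.03, 6.06, 6.30 and 6.20 in C23 nurses. The difference was -1.10 ± 0.18 for C21 minus C23 (limma, adjusted p = 0.023, and 0.052 to 0.076 without C21-N7, C21-N8, C23-N4 or C23-N5) and C21 minus C28 was -1.20 ± 0.18 (adjusted p = 0.032, up to 0.078 without single nurses, here C28-N7, and -0.79 with run as a term). Foragers did not repeat this, with means of 6.31, 6.05 and 5.94 log2 CPM in C21, C28 and C23. The nurse difference between C21 and C23 minus the forager difference was not called (limma, adjusted p = 0.076). Unexposed C25 nurses ranged from 4.67 to 6.02 log2 CPM, overlapping the C21 nurses, while the means were 5.98 in C26 and 5.93 in C27.

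GB49701 and GB46774 were abundant genes with small but tight differences. GB49701 had means of 6.88 ± 0.08 log2 CPM in C21, 6.49 ± 0.06 in C28 and 6.60 ± 0.07 in C23 (SD, n = 5 each). C21 minus C28 was 0.38 ± 0.05 (limma, adjusted p = 0.020; 0.067 without C21-N8 and 0.052 without C28-N7). GB46774 had 8.37, 8.53, 8.55, 8.60 and 8.61 log2 CPM in C21 nurses, 7.69, 7.97, 7.84, 8.31 and 8.16 in C28 nurses and 7.86, 7.91, 7.95, 7.89 and 7.91 in C23 nurses. All C21 nurses lay above all other exposed nurses, and C21 minus C23 was 0.63 ± 0.10 (limma, adjusted p = 0.020; 0.066 without C21-N8 and 0.052 without C21-N7 or C23-N5). Unexposed C25 nurses had means of 6.91 log2 CPM of GB49701 and 8.59 of GB46774, near the C21 level. C26 had 6.65 and 7.82, and C27 had 6.65 and 8.21. In foragers C21 minus C28 was 0.08 for GB49701, and C21 minus C23 was -0.13 for GB46774. GB45134 was low in C23, at 0.96, 1.20, 1.71, 1.10 and 1.47 log2 CPM, against 2.38 to 3.75 in C21 and 2.21 to 2.73 in C28. This gene differed by 1.62 ± 0.23 for C21 minus C23 (limma, adjusted p = 0.013, 0.053 without C21-N8).

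The largest fitted differences between C21 and C23 came from genes near the floor in one colony. GB51446 had 438, 663, 10, 224 and 366 reads in C21 nurses, 91, 596, 191, 235 and 131 in C28 nurses and 24, 1, 2, 0 and 0 in C23 nurses. The fitted difference of C21 minus C23 was 5.32 ± 1.09 log2 units (limma, adjusted p = 0.033, up to 0.092 without single nurses, here C21-N8). A single nurse in C21 and another in C23 went against their nest mates, C21-N7 with 10 reads and C23-N1 with 24. GB43927 had 68 to 152 reads in C21, 51 to 95 in C28 and 18, 0, 0, 1 and 4 in C23, and C21 minus C23 was 4.49 ± 0.68 (limma, adjusted p = 0.020, up to 0.066 without C21-N8). Again C23-N1, the shallowest library, was the C23 nurse with the most reads. Unexposed C27 nurses ranged from -3.76 to 0.93 log2 CPM of GB43927, with means of 2.78 in C25 and 1.81 in C26. C23 foragers had -3.04, 1.26, 1.80, -3.75 and -3.75 log2 CPM of this gene.

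In the other direction, GB53760 had 0, 21, 34, 1 and 0 reads in C21 nurses, 35, 46, 24, 23 and 31 in C28 nurses and 25, 78, 52, 62 and 52 in C23 nurses. The fitted difference was -3.46 ± 0.69 for C21 minus C23 (limma, adjusted p = 0.033, up to 0.092 without C21-N8). Within C21 the nurses fell apart into 2 with 21 and 34 reads and 3 with 0 or 1. GB42956 had 0 to 4 reads in C21, 0 to 33 in C28 and 7 to 41 in C23, with C21 minus C23 at -3.15 ± 0.69 (limma, adjusted p = 0.042, up to 0.094 without C21-N7).

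Among further genes called between C21 and C28, GB52856 had 3.62, 3.96, 3.47, 3.17 and 2.97 log2 CPM in C21 nurses and 2.44, 2.01, 2.44, 2.37 and 2.15 in C28 nurses, with 2.49 to 3.21 in C23. All C28 nurses lay below the other colonies for this gene, and C21 minus C28 was 1.15 ± 0.19 (limma, adjusted p = 0.032, up to 0.095 without C21-N7). GB51295 and GB50522 were lower in C21 than in C28, by 2.82 and 1.73 log2 units (limma, adjusted p = 0.039, up to 0.0997 without C28-N7, and 0.032, up to 0.080 without C28-N7). For GB51295 the C28 nurses were tightly grouped at 1.51 to 2.28 log2 CPM, while C21 nurses ranged from -1.96 to 0.60, and C23 nurses, at -0.59 to 1.53, reached the C28 range. With run as a term only C21-N4 links the runs, so the pairs with C28 rest on this nurse and cannot be tested for run. Over the genes named in these paragraphs, limma called 0 of the 5 differences of C28 minus C23 and 0 of the 7 of C21 minus C28 there. For C21 minus C23, limma with run as a term called 10 of the 12. Within run B it called 2 of those 12, GB54675 and GB46774, and within lane 4 GB54675 alone.

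The same 3 colonies were then read in foragers, bees that the nurse comparison did not use. All 5 C21 foragers were in lane 3 of run B. Of the C28 foragers 4 were in lane 7 of run A and 1 in lane 8 of run B. Of the C23 foragers 3 were in lane 8 of run A and 2 in lane 4 of run B. Thus in foragers too colony and lane cannot be told apart. Among foragers the F test called 11 of 11381 genes (0.0967%), with 1081 at an unadjusted p below 0.05 (9.5%), and the pairs C21 minus C23, C28 minus C23 and C21 minus C28 had 16 (0.141%), 3 (0.0264%) and 6 (0.0527%) called genes. Of the 250 genes called between C21 and C23 nurses, 129 (51.6%) had the same sign in foragers, against 46.1% of all 11151 genes in both tables, so that the called genes as a whole were close to the background. The large and the small nurse differences were then counted apart. Of the 34 genes with a nurse difference of at least 1 log2 unit, 28 had the same sign in foragers and 15 of these an unadjusted p below 0.05 there, with a median forager difference of 0.73 in the nurse direction. Of the 216 smaller ones, 101 had the same sign and 16 such a p, and the median was -0.01. Over all genes, 734 of 11151 had the same sign with such a p, and in foragers 6.17% of genes were higher and 6.23% lower in C21 than in C23 at that p. For C28 minus C23, 12 of 15 called genes had the same sign in foragers (47.2% of all genes), 7 of them with an unadjusted p below 0.05, which 2.65% of forager genes reached as higher and 2.48% as lower in C28. Of the 10 of them with a nurse difference of at least 1 log2 unit, 9 had the same sign. For C21 minus C28 it was 21 of 41 (51.3% of all genes). Here the large differences did not recur in foragers, with the same sign for 4 of the 8 of at least 1 log2 unit. Of these, 1 had an unadjusted p below 0.05 there, beside 495 of all 11151 genes. The median forager difference of the 8 was -0.04 in the nurse direction.

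**Figure D4:**
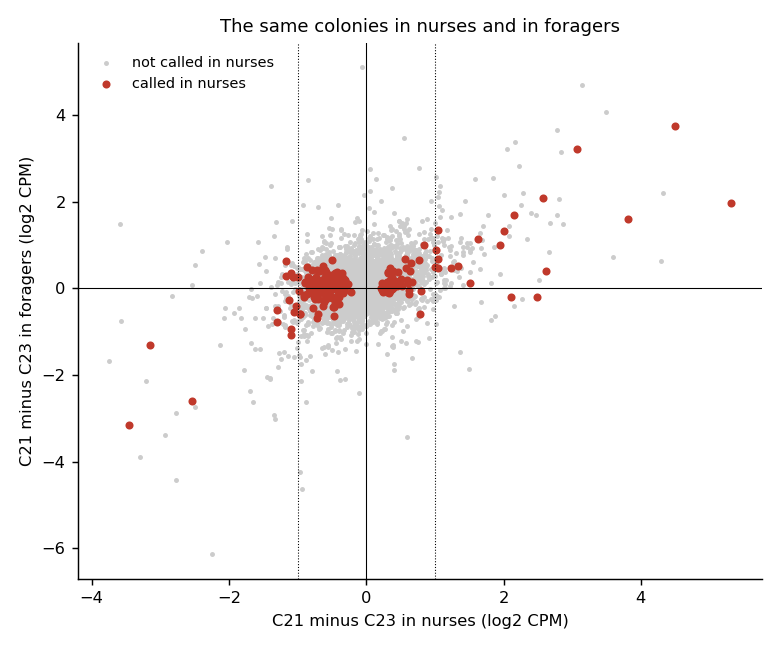
Log2 difference of C21 minus C23 in nurses (horizontal axis) and in foragers (vertical axis) for the 11151 genes of both tables, with the 250 genes called in nurses in red and dotted lines at 1 and -1 log2 units in nurses. The called genes beyond these lines lie mostly in the lower left and upper right, and those between them lie around 0 on the forager axis.

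GB43377, given above, differed by 2.99 for C28 minus C23 in foragers (limma, adjusted p = 4.8e-06). GB48206 was also called in foragers. It had 0.64, 0.94, -0.67, 1.02 and 0.22 log2 CPM in C21 foragers, 0.36, 0.23, 0.34, -0.81 and 0.12 in C28 foragers and -3.75, -3.20, -2.73, -1.79 and -2.46 in C23 foragers. Every C23 forager lay below every other forager, and C21 minus C23 was 3.21 ± 0.42 (limma, adjusted p = 0.0033) and C28 minus C23 2.83 ± 0.42 (adjusted p = 0.020). GB48911 had means of 0.78, 0.39 and -1.31 log2 CPM in C21, C28 and C23 foragers, and neither C21 minus C23, at 2.09 ± 0.40 (limma, adjusted p = 0.053), nor C28 minus C23, at 1.70 (adjusted p = 0.30), was called there. GB54675 was looser in foragers, with 3.10, 4.88, 3.37, 3.46 and 4.62 log2 CPM in C21, 2.71 to 3.67 in C28 and 2.34 to 3.48 in C23. Only 2 of the 5 C21 foragers were near the level of the C21 nurses, each caste having been normalized in its own table.

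The difference between castes was tested directly for each pair. With limma 0 genes were called for C21 minus C23 (lowest adjusted p = 0.060, 2198 genes with an unadjusted p below 0.05, 19.7%) and 0 for C28 minus C23 (lowest adjusted p = 0.62, 875 such genes, 7.85%), and 4 of 11151 were called for C21 minus C28, GB41264, GB42659, GB44166 and GB55903 (0.0359%), all with an adjusted p of 0.044. All 4 were higher in C21 than in C28 in nurses and lower in foragers. GB44166 had 5.23, 5.25, 5.39, 5.47 and 5.40 log2 CPM in C21 nurses and 4.84, 4.76, 5.13, 4.87 and 4.68 in C28 nurses, but 5.14, 5.01, 5.22, 4.82 and 5.28 in C21 foragers and 5.30, 5.79, 5.37, 5.64 and 5.32 in C28 foragers. The number of genes called between castes ran from 0 to 180 when single bees were left out, with 122 without nurse C21-N3 and 180 without forager C23-F2.

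Then 5 of the genes that the study named for exposed apiary nurses were followed by bee. LOC100576096 (GB40548) encodes a non-muscle myosin heavy chain, a motor protein of the actin cytoskeleton. It had 7.26, 2.07, 7.21, 7.14 and 1.71 log2 CPM in C21 nurses, 1.51, 2.60, 1.47, 1.89 and 2.86 in C28 nurses and 2.94, 0.65, 1.69, 1.60 and 1.02 in C23 nurses. C21 nurses thus fell into 2 levels, N3, N7 and N8 with 3242 to 3968 reads and N4 and N9 with 123 and 87. The difference of 3.50 ± 1.03 between C21 and C23 was not called (limma, adjusted p = 0.074; 0.042 without C21-N4 and 0.018 without C21-N9). The same levels were seen in foragers, with 6.89, 7.40, 1.90, 7.26 and 7.14 log2 CPM in C21 and 1.86 to 3.12 in C28 and C23. Over both castes, 7 of 10 C21 bees were above 6 log2 CPM and none of the 20 bees of C28 and C23 was above 3.12. The unexposed nurses had 0.42 to 2.80 log2 CPM.

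GB40547, one of the 63 genes that the study listed for apiary nurses, comes just before this gene in number. It was picked after its values were seen and split the same bees. It had 1.15, -3.76, 1.55, 1.83 and -3.18 log2 CPM in C21 nurses and 1.40, 1.33, -3.05, 1.20 and 1.52 in C21 foragers, so that the same 7 of 10 C21 bees were above 1 log2 CPM. The highest of the 20 bees of C28 and C23 was at -1.88. Since no genome was used here, the distance between both genes and any sharing of reads were not tested.

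Both cuticle genes had 1 to 3 nurses well above the rest. LOC725804 (GB48862), which encodes a cuticle protein, a structural component of the insect exoskeleton, had 2690, 9, 0, 1 and 0 reads in C21 nurses, 14, 0, 62, 0 and 1 in C28 nurses and 0, 248, 5, 3 and 0 in C23 nurses. Its colony means were -1.03, -2.06 and -1.65 log2 CPM, and C21-N3 alone held most of its reads. CPR5 (GB40299), another cuticular protein gene, had 6.62, 1.68, 1.68, 1.19 and 1.25 log2 CPM in C21 nurses, 1.12 to 2.06 in C28 nurses and 0.96, 3.74, 1.67, 1.49 and 2.09 in C23 nurses. C21-N3 and C23-N2, the library closest to it, were the highest nurses for both genes.

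AMP deaminase 2 (GB44610), an enzyme that turns AMP into IMP, had 1, 26, 1, 10 and 2 reads in C21 nurses, 0, 5, 12, 15 and 1 in C28 nurses and 0, 0, 679, 737 and 1 in C23 nurses. It was carried by C23-N3 and C23-N4, which were in different lanes. C28 minus C23 was -1.99 ± 1.68 (limma, adjusted p = 0.71). LOC107965368 (GB55100), a TOX family member, a class of high mobility group DNA-binding proteins, had 1 to 12 reads in every nurse and no detectable order of the colonies at this depth (limma F test, adjusted p = 0.65).

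**Figure D5:**
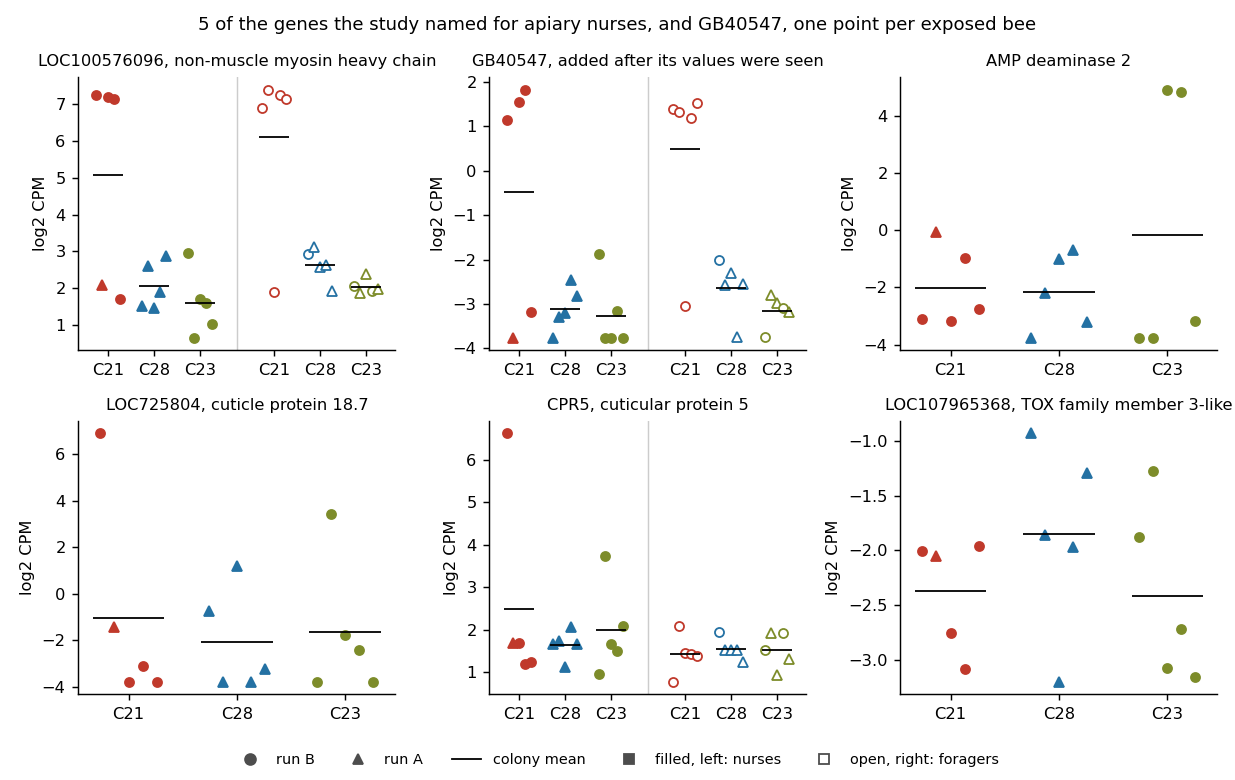
Log2 CPM per exposed bee of 5 of the genes that the study named for apiary nurses and of GB40547, by colony, nurses as filled points and foragers as open points where the gene was in the forager table, with colony means as lines; circles are run B and triangles run A. The myosin gene had 2 levels in C21, near 7 and near 2 log2 CPM, and the cuticle and AMP deaminase genes were high in 1 to 3 nurses.

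Such single high nurses were counted over all genes. A nurse was taken as high for a gene where its value exceeded the median of the 15 nurses by 3 log2 units or more and was above 0 log2 CPM. This held for 172 of the 11271 genes (1.53%) and for 26 of the 63 genes that the study listed for apiary nurses (41.3%). The study chose that list on these libraries, so that its share is a description. C21-N3 was high in 75 genes and alone in 36 of them, and the other 14 nurses were high in 7 to 33 genes each. Of the 81 genes with 2 or more high nurses, 15 had them all in 1 colony, 4 in C21, 8 in C28 and 3 in C23. C21-N3 shared 8 genes with C23-N2 alone and 6 with C23-N3 alone.

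Across the 63 genes, the colonies mostly lay on the same side of the unexposed mean. All 3 colonies did so for 57 of the 63 genes, 35 with higher and 22 with lower expression in the exposed colonies, which follows in part from how the list was made. For 23 genes a single colony gave over 50% of the summed difference, C21 for 11, C28 for 8 and C23 for 4. By the F test among the exposed colonies 1 of the 63 genes was called, GB43377, which was also the only one called for a pair. The median difference over the 63 genes was -0.01 for C21 minus C23, -0.11 for C28 minus C23 and -0.03 for C21 minus C28.

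The study listed 16 transcription factors because they differed in field foragers near corn, which are other libraries of the series, and because a published network of brain gene regulation ties them to behavior. In the apiary nurses they had lower means in C21 than in C23 for 16 of 16, with a median difference of -0.42 beside 0.03 over all genes. None was called with limma for any pair, and 8, 1 and 7 of the 16 had an unadjusted p below 0.05 for C21 minus C23, C28 minus C23 and C21 minus C28, beside 25.2%, 11.8% and 19% of all genes. C21 minus C28 was below 0 for 13 of 16, with a median of -0.39, and C28 minus C23 for 10 of 16, with a median of -0.11. With equal medians or quantile normalization C21 minus C23 was still below 0 for 16 of 16, and for 15 of 16 within lane 4. C21 minus C28 was below 0 for 12 of 16 with quantile normalization. With lane as a term it was below 0 for 4 of 16, but there it rests on C21-N4 and C28-N2 alone, which share a lane. Over the alternatives 0 to 4 factors were called for C21 minus C23 and 0 to 3 for C21 minus C28, with 4 and 3 when all 30 nurses entered the fit, and 0 for C28 minus C23. With limma-voom the 3 pairs had 0, 0 and 1 called. The mean over the 16 genes was 5.86, 5.97, 5.44, 5.44 and 6.04 log2 CPM in C21 nurses, 6.22, 5.83, 6.32, 6.29 and 5.98 in C28 nurses and 6.21, 5.88, 6.18, 6.21 and 6.34 in C23 nurses. C21-N7 and C21-N8 were the lowest, and the colonies overlapped. With lane as a term the median of C21 minus C28 was 0.13, again C21-N4 against C28-N2 and not a comparison of the colonies. That of C21 minus C23 was -0.47, the same value as within lane 4.

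Among these factors, big brother (GB45157), a partner of Runx DNA-binding proteins, had 5.54, 6.13, 5.50, 5.04 and 6.13 log2 CPM in C21 nurses, 6.15 to 6.39 in C28 nurses and 6.11 to 6.71 in C23 nurses. C21 minus C23 was -0.70 ± 0.18 (limma, adjusted p = 0.051, the lowest of the 16). Sox-2 (GB50686), which maintains neural progenitors in vertebrates, had a difference of -0.60 ± 0.18 (limma, adjusted p = 0.081), and Foxp (GB40150), a forkhead factor tied to motor learning in vertebrates and flies, -0.59 ± 0.20 (limma, adjusted p = 0.098). Rx1 (GB49611), a retinal homeobox factor, was lower in C21 than in C28 by 0.90 log2 units (limma, adjusted p = 0.053), without overlap between both colonies. Mblk-1 (GB50048), named for its expression in large Kenyon cells of the mushroom body, differed by -0.38 ± 0.28 and Kr-h1 (GB43022), a mediator of juvenile hormone, by -0.37 ± 0.58 for C21 minus C23, both within the spread among nest mates.

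In foragers of the same colonies the factors did not have this order. C21 minus C23 was below 0 for 3 of 16 with a median of 0.24. The mean over the 16 genes was 6.36 to 6.76 log2 CPM in C21 foragers. It was 5.82 in C23-F3 and 6.42 to 6.68 in the other C23 foragers, within the C21 range. How far this order rests on C23-F3 was not tested. The nurse difference minus the forager difference was below 0 for 14 of 16 and called for 0 of 16 (limma, lowest adjusted p = 0.061), with 8 of 16 at an unadjusted p below 0.05, beside 19.7% of all genes. Among unexposed nurses, C25 had means of 5.52 to 6.04 log2 CPM, against 6.11 to 6.28 in C26 and 5.94 to 6.45 in C27. In these nurses colony and lane cannot be told apart, and the part of clothianidin was not tested.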

How the data were processed

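Single brains of apiary bees were sequenced. Per the labels and the study's methods, the authors trimmed reads with Trimmomatic 0.36, aligned and counted them with STAR against the honey bee genome and its official gene set, removed low genes, scaled each caste's table by TMM (edgeR, R 3.6.3), and deposited log2 CPM values. Whole reads were worked back from the equal steps of these values (all 333056 nurse values under 20000 reads lay within 0.1 of a whole number, with a prior count of 2).

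No further filter was set on the deposited log2 values. The tests used limma 3.58.1 under R 4.3.3 (linear model per gene, moderated variances with a trend on mean expression, two-sided, no covariate), with Benjamini-Hochberg adjustment over all genes. The p-values measure the spread among nest mates. Castes were compared by their colony contrasts, since their tables were normalized apart. The code was tested on simulated data. Figures used Python 3.11.15 with pandas 2.3.3, numpy 2.4.6 and matplotlib 3.10.9.

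Genes named are the 10 with the lowest F p, up to 2 unnamed identifiers per direction and pair among the largest differences, 5 of the genes the study named for apiary nurses, and examples of its 16 transcription factors. GB40547 and the 4 genes that differed between castes were added after their values were seen. Lists by keyword could not be used, since no identifier matched the reference table. Comparisons, lists and rules were chosen with earlier results of these data known. Alternatives were another filter, pseudocount, scaling, variance model, limma-voom, other bees in the fit, run, lane and a replicate block, and leaving out each bee. Those for foragers, unexposed nurses and castes beyond a forager filter were chosen after seeing the data. Field libraries were not analysed here.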

Additional observations from a re-analysis of the deposited data

Results flagged for a closer look

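Single bees lay far from their 4 nest mates in 10 of the 117 groups of 5 values examined (8.55%). The rule marks about 1 in 20 groups of unselected values. Most groups were of the named genes, chosen in part by their values in these nurses, so the share cannot be read against that rate. C23-N1 had 10.5 M reads, the only exposed nurse whose depth stood apart. C21-N3 had 6.88 log2 CPM of the cuticle protein gene LOC725804 (GB48862) and 6.62 of CPR5 (GB40299), and C23-N2 had 3.42 of GB48862. GB51446 was at -1.17 log2 CPM in C21-N7 and at 1.29 in C23-N1, and GB43377 was at 6.10 in C28-N7. Among the transcription factors, GB44976 was at 7.17 in C23-N3, hairy (GB47799) at 5.08 in C23-N2 and Sox-2 (GB50686) at 6.71 in C23-N5.

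For 4 genes C21 minus C28 in nurses exceeded that in foragers in the test of the difference itself (limma, adjusted p = 0.044 each), by 0.87 log2 units for GB41264, 0.75 for GB42659, 0.88 for GB44166 and 0.81 for GB55903. C21 was above C28 in nurses and below it in foragers for each of them. GB44166 was called for C21 minus C28 in nurses (limma, adjusted p = 0.046), and the other 3 in neither caste (lowest adjusted p = 0.055).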

How the results depend on the processing

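The direction of most named genes held, but the counts of called genes did not. The F test, C21 minus C23, C28 minus C23 and C21 minus C28 called 121, 250, 15 and 41 genes. Leaving out single nurses gave 2 to 543, 3 to 994, 1 to 23 and 1 to 305, leaving out foragers 7 to 23 for the forager F test (11), unexposed nurses 2007 to 3536 (3135), and either caste 0 to 180 for the caste difference (4). The other counts over 1.5 times apart were as follows. With log2(CPM + 1), C21 minus C28 had 63, and with quantile normalization 102. Without the mean-variance trend the F test had 69, C21 minus C23 132 and C21 minus C28 1. With limma-voom on the recovered reads C21 minus C23 had 133 and C21 minus C28 68. With all 30 nurses in the fit the 4 counts were 1579, 1574, 157 and 765. With the pair alone C21 minus C23 had 18 and C21 minus C28 2. With run as a term the F test had 18, C28 minus C23 3 and C21 minus C28 3, and with lane 10, 4 and 5. In both fits the pairs with C28 rest on C21-N4, the only nurse that links the runs. C21 minus C23 had 242 genes with run and 175 with lane, of which 171 and 60 were among the 250. Within run B it had 5 genes and within lane 4 it had 1. The forager F test had 5 with a filter at 1 CPM. The causes were not tested.

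The bee numbers were not taken to pair the nurses. Same-numbered nurses of 2 colonies had correlations of their deviations from -0.32 to 0.42, and nurses with different numbers were not compared in this way. With the replicate block the 4 counts were 2, 22, 2 and 2.

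No named gene changed direction for a pair in which it was called. With lane as a term C21 minus C28 rests on C21-N4 and C28-N2 alone. Of the 41 genes called for that pair, 40 kept their sign there. GB55100 had -0.34 for C28 minus C23 with lane as a term. CPR5 (GB40299) had -0.061 for C21 minus C28 with lane and -0.20 to 1.16 without single nurses (lowest without C21-N3), and LOC725804 (GB48862) -0.95 to 1.84 (lowest without C21-N3). GB49050 had 0.038 for C21 minus C23 with lane as a term and within lane 4, and GB49751 0.19 with the replicate block. For the 16 transcription factors the median of C28 minus C23 was -0.42 with run and -0.74 with lane, and that of C21 minus C28 -0.11 and 0.13. Genes with a few reads per nurse, such as GB48206 and GB42956 in 1 colony, are limited by depth.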
